A study of Mus musculus with 2 samples.

Results

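Integrins are cell surface receptors, each an αβ pair, that hold cells to the extracellular matrix or to other cells. The genes described here are the integrin subunits, the laminins and nidogens that build the basement membrane to which many integrins bind, and the cytoplasmic adaptors that join integrins to actin. A gene was included when its symbol began with Itga or Itgb, was a numbered Lama, Lamb or Lamc chain, or was *Nid1*, *Nid2*, *Ilk*, a parvin, a kindlin (*Fermt*) or a talin (*Tln*). This rule, which uses names and no measured value, found 49 of the 18193 genes with a probe set of their own on the array, and these 49 genes had 108 probe sets. *Itga11*, *Itgad* and *Fermt1* named no probe set in the platform annotation and were not analysed here.

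Gene expression was measured on 2 Affymetrix arrays, 1 hybridised with RNA of perigonadal WAT from PeriA Tg mice and 1 with that from WT mice, and each array received a single pool from 3 mice. All mice were female, had a C57BL/6 background, ate the HFD until 30 weeks of age and were fasted overnight before the tissue was taken. The Tg mice were heterozygous for human PeriA under the aP2 promoter/enhancer, an adipocyte promoter, and the WT mice were littermates without the transgene. With 1 pool per genotype there were no replicates, so that no value below has an error over mice, no difference was tested, and the words higher and lower compare these 2 arrays. In a tissue sample, fewer cells of a type and less RNA per cell cannot be told apart.

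Signal is the brightness of a probe set in arbitrary units on a linear scale, and the signal log ratio is the log2 of the Tg signal over the WT signal. Each array had a mean signal of 500.0 after its lowest and highest 2% were set aside, and the median signal was 95.4 on the Tg array and 101.1 on the WT array. A gene was read from its brightest probe set and was kept if at least one array gave it a signal of 98.2, the median over both arrays, or more. The threshold of 0.3 or -0.3 was that of the methods. Probe sets of one gene differed in signal log ratio with a pooled SD of 0.41 over 5260 genes, which describes repeated readings of the same pools and is larger than this threshold. For the 8 pairs of poly-A control probe sets, whose bacterial transcripts are labelled with the sample, the 5' signal log ratio was below the 3' value by a median of -0.55, whereas for the 8 pairs of hybridisation controls this median was -0.005. For the 5 pairs on mouse transcripts, which read the sample RNA itself, 4 differences were below 0, with a median of -0.25 and a range of -1.67 (transferrin receptor) to 0.31 (18S rRNA). All 8 adipocyte markers on the array passed the filter, with 2 over 0.3, 1 under -0.3 and a median of 0.07. Their summed signals were 220455 in Tg and 213821 in WT. They ranged from *Lep*, which encodes leptin, at -0.64 to *Pparg* at 0.57. *Adipoq*, which encodes adiponectin, had signals of 43803 in Tg and 41052 in WT.

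Integrin α and β subunits pair in fixed combinations. The β1 subunit joins most α subunits and makes the common receptors for collagen, laminin and fibronectin, αv pairs with several β subunits that read the RGD motif, and β2 is made by leukocytes, where it pairs with the α subunits of *Itgal*, *Itgam*, *Itgax* and *Itgad*. In fat, every adipocyte is wrapped in a basement membrane of laminin, nidogen, type IV collagen and perlecan. Talin and kindlin bind the tails of β subunits and switch integrins on, and integrin-linked kinase forms a complex with parvin that ties them to actin.

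Of the 49 genes, 39 passed the signal filter. *Itga9* and *Lamb3* passed only through the WT signal and *Lama3* only through the Tg signal. Among the 39, 5 had a signal log ratio over 0.3, against 16.6% of all 11587 genes that passed, and 14 were under -0.3, against 16.9% of all genes. Thus 12.8% of these genes were over 0.3 and 35.9% were under -0.3, and their median was -0.08, against 0.02 for all genes. Taking both sides of the threshold together, 26.3% of the calls in these genes were on the higher side, against 49.6% of the calls in all genes, and after median centring of the arrays the shares were 38.9% and 65.7%. The 20 other genes lay within the threshold. The scatter of all genes was wider at low signals, and in the band with a mean signal of 1000 and over, 5 of 17 of these genes were under -0.3 and 2 were over 0.3, against 9.08% and 12.8% of all genes in that band.

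**Figure D1:**
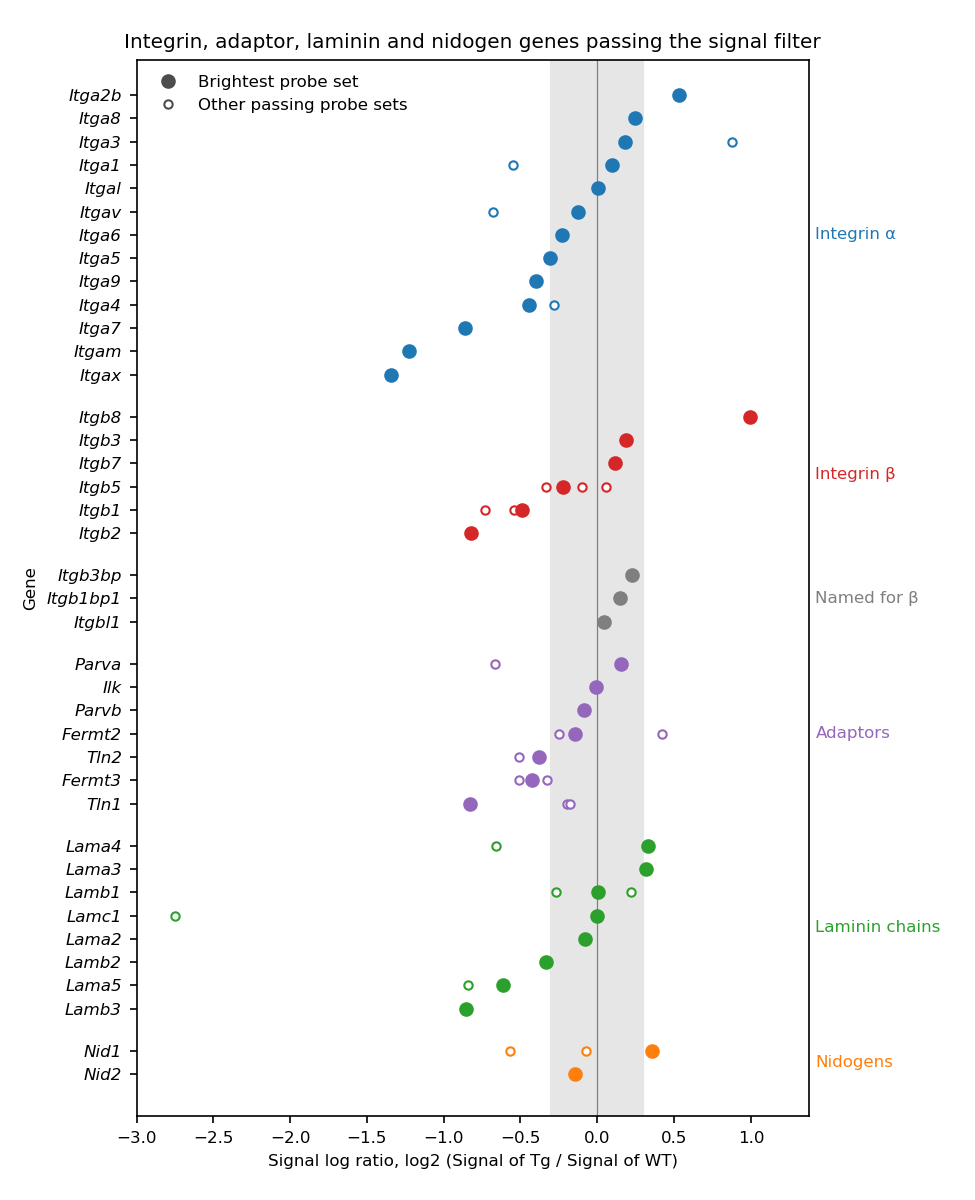
Signal log ratio (log2, Tg over WT) on the horizontal axis for the 39 integrin, adaptor, laminin and nidogen genes that passed the signal filter, 1 gene per row. Filled points are the brightest probe set, open points the other passing probe sets, and the grey band covers -0.3 to 0.3. *Itgb8* at 0.997 lies farthest to the right, and *Itgax* at -1.35 is the lowest filled point.

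*Itgax* and *Itgam*, both genes of leukocyte integrins, had the lowest signal log ratios. *Itga7* (-0.86), *Lamb3* (-0.85) and *Tln1* (-0.83), which are not leukocyte subunits, came next. Of the 9 leukocyte subunits listed, 8 were on the array and 6 passed the filter. Of these 6, 4 had a value under -0.3 and none had one over 0.3, against 16.9% and 16.6% of all genes. The median was -0.64, against 0.02 for all genes. *Itgax*, which encodes CD11c of dendritic cells and of macrophages in obese fat, had a signal of 480.3 in Tg and 1220 in WT, a signal log ratio of -1.35 and the lowest value of all 39 genes. *Itgam*, which encodes CD11b of macrophages and neutrophils, had 107.6 in Tg and 251.5 in WT (-1.22). *Itgb2*, which encodes the β2 partner of both, had 1704 in Tg and 3016 in WT (-0.82). All these 3 genes have 1 probe set each, so that no second reading exists on the array. *Itga4*, the α4 subunit of lymphocytes and monocytes that binds VCAM-1, had 454.7 in Tg and 619.9 in WT (-0.45), and its other passing probe set had -0.29.

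The other leukocyte subunits lay within the threshold or under the filter. *Itgal*, which encodes CD11a of the LFA-1 receptor that is abundant on T cells, had a signal of 287.4 in Tg and 286.7 in WT, and *Itgb7*, the β7 partner of α4 and αE in gut-homing lymphocytes, had 130.9 in Tg and 120.8 in WT. Their signal log ratios were 0.00 and 0.12. *Itgae*, the αE subunit of epithelial T cells and some dendritic cells, was under the filter on both arrays, with 94.1 in Tg and 72.6 in WT. *Itgb2l*, a β2-like gene of mouse neutrophils, was under it too, with 13.4 in Tg and 67.3 in WT. Kindlin-3, which activates integrins in blood cells and is encoded by *Fermt3*, had 1231 in Tg and 1653 in WT (-0.43), and its other 2 passing probe sets had -0.51 and -0.33. Its blood-cell companion γ-parvin (*Parvg*) had signals of 51.4 in Tg and 55.1 in WT, under the filter.

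Beside these genes, macrophage markers were low on the Tg array as well: 6 of 12 were under -0.3 and none was over 0.3. Their median was -0.39, with summed signals of 44039 in Tg and 54715 in WT. Among all genes, 16.9% were under -0.3 and 16.6% over 0.3, and every marker list below is to be read beside these shares. None of the macrophage markers is an integrin gene. They ranged from *Trem2*, a lipid-sensing receptor of macrophages in obese fat, at -1.85 to *Cd14*, the endotoxin co-receptor, at 0.18. *Cd68*, a lysosomal protein of macrophages, had 1453 in Tg and 3183 in WT, *Adgre1*, which encodes F4/80, had -0.28, *Csf1r*, the receptor for the macrophage growth factor, had -0.16 and *Mrc1*, the mannose receptor of resident macrophages, had -0.004. No macrophage marker was under the filter. Of 5 dendritic cell markers on the array 3 passed, 2 of them under -0.3, with a median of -0.68 and summed signals of 881.7 in Tg and 1300 in WT, and *Flt3* and *Xcr1* were under the filter. For T and NK cells, 2 of 6 passing markers were under -0.3, with summed signals of 964.2 in Tg and 1140 in WT and a median of -0.17, and *Cd3e* was under the filter. For neutrophils, 2 of 4 were under -0.3 and 1 was over 0.3, with a median of -0.42 and summed signals of 1150 in Tg and 2626 in WT, most of which came from *S100a8*, a calcium-binding protein of neutrophils and monocytes, at 847.8 in Tg and 2294 in WT. For B cells, 2 of 4 were under -0.3 and none was over 0.3, with a median of -0.21 and summed signals of 1472 in Tg and 1720 in WT. Mast cell markers lay on the other side, with 2 of 5 over 0.3, none under -0.3, a median of 0.25 and summed signals of 2815 in Tg and 2409 in WT. The part of these cell types in the integrin values was not tested. Without the leukocyte subunits and blood-cell adaptors, 9 of 32 genes (28.1%) were under -0.3 and 5 (15.6%) were over 0.3. Among all genes the shares were 16.9% and 16.6%. The median of the 32 was -0.05, against 0.02 for all genes.

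**Figure D2:**
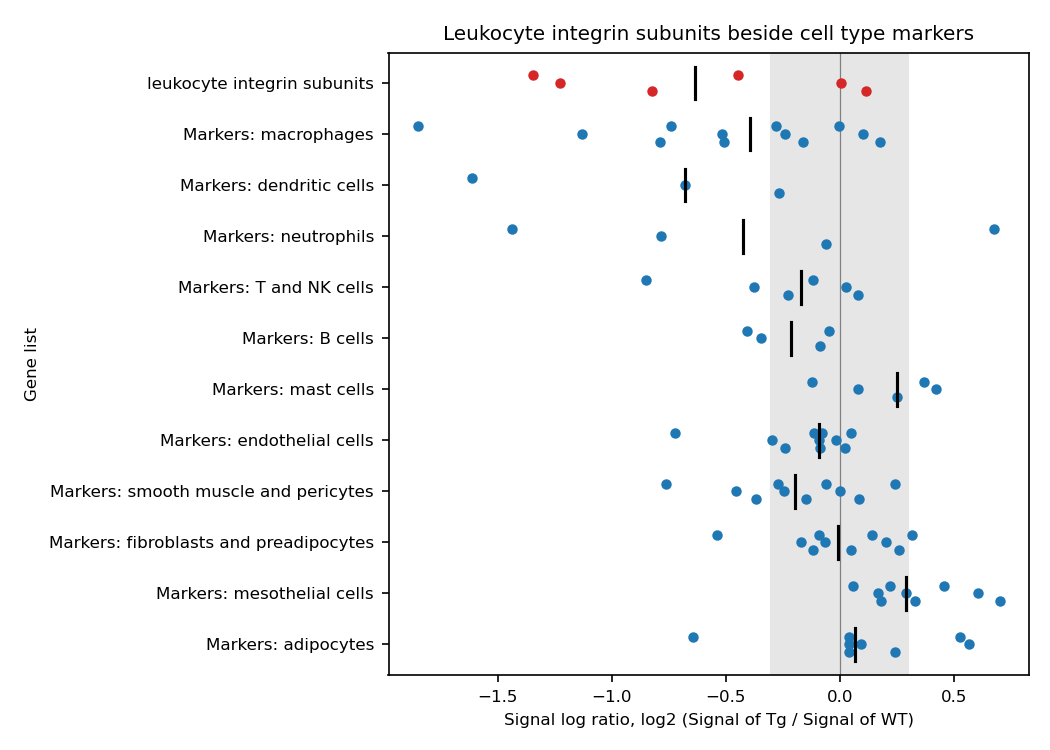
Signal log ratio (log2, Tg over WT) on the horizontal axis for the leukocyte integrin subunits (red) and for the markers of 11 cell types (blue) that passed the signal filter, 1 point per gene and 1 list per row. Black bars are medians and the grey band covers -0.3 to 0.3, and vertical offsets within a row have no meaning. The medians were -0.64 for the leukocyte integrin subunits, -0.39 for macrophages, -0.09 for endothelial cells and 0.29 for mesothelial cells.

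Promoter sequence is shown for the 2 genes with the lowest values, *Itgam* and *Itgax*, which lie near each other on chromosome 7, and for *Itgb1* and *Itgb8*, the broad β subunit and the β subunit with the highest value. PU.1, a transcription factor of myeloid cells, binds a core that reads GAGGAA. Each line gives the 250 bases before the RefSeq transcription start in GRCm38.p6, 5' to 3' on the strand of the gene, and capitals mark GAGGAA or its reverse complement TTCCTC.
Itgam, chr7:128062390-128062639, + strand: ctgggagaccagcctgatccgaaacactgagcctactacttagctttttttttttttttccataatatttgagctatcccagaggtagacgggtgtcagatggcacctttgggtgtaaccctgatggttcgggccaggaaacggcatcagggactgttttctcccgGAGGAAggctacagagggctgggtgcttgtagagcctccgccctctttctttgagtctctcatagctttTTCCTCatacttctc
Itgax, chr7:128129300-128129549, + strand: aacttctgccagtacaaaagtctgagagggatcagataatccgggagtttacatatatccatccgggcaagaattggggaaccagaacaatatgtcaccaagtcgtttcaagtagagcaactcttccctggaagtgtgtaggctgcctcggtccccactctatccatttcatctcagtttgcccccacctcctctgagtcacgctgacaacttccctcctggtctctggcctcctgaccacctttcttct
Itgb1, chr8:128685404-128685653, + strand: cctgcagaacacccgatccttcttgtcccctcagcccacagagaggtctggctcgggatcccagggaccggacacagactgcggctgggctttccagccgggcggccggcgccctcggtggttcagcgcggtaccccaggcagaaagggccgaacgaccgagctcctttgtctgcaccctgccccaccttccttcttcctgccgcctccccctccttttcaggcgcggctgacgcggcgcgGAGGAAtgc
Itgb8, chr12:119238277-119238526, - strand: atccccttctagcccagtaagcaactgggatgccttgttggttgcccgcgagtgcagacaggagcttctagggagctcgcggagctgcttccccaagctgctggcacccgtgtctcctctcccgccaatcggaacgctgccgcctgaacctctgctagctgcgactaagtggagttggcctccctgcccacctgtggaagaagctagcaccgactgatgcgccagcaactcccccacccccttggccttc

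The core was present on both strands of the *Itgam* window, with its first base 84 bases before the start on the forward strand and 15 bases before it on the reverse strand, and once in the *Itgb1* window, 9 bases before the start. The *Itgax* and *Itgb8* windows do not hold these letters. RefSeq promoters were matched for 33 of the 49 genes, with 38 start sites, and 42.1% of these windows held the core on either strand, against 23.3% of 32851 promoters of the same length. For the leukocyte subunits and blood-cell adaptors, 3 of 8 windows did, those of *Itgam*, *Itgb2l* and a start of *Parvg*. Of these genes, *Itgb2l* and *Parvg* were under the signal filter. *Itgb2*, *Itgal* and *Itgae* had no matched promoter. The TATA box letters TATAAA, searched on both strands, were in none of the 38 windows and in 12.4% of all. A match of letters is a description and not a bound site.

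Among the other α subunits, 3 were under -0.3 and 1 was over 0.3. With those of leukocytes, 46.2% of 13 passing α subunits were under -0.3 and 7.69% over 0.3, against 16.9% and 16.6% of all genes. *Itga7*, the laminin-binding α7 of muscle cells, had 938.6 in Tg and 1705 in WT (-0.86, from its only probe set). Markers of smooth muscle and pericytes, cells that also carry α7, had 3 of 10 under -0.3 and none over 0.3, with a median of -0.20 and summed signals of 36208 in Tg and 40927 in WT. Of 10 skeletal muscle markers 4 passed, 2 of them under -0.3 and 1 over 0.3, with a median of -0.37 and summed signals of 6291 in Tg and 6334 in WT. The part of either muscle type in the *Itga7* value was not tested. *Itga9*, a receptor for tenascin and VCAM-1, was dim, with 97.1 in Tg and 127.8 in WT (-0.40), and *Itga5*, the fibronectin receptor, was just past the threshold, with 157.2 in Tg and 194.6 in WT (-0.31). *Itga2b*, which encodes αIIb of platelets and megakaryocytes, had 299.0 in Tg and 207.0 in WT (0.53). Its partner β3 (*Itgb3*) had 0.19, and the platelet chemokines *Pf4* and *Ppbp* had -0.11 and -0.29. The other platelet markers on the array, *Gp9*, *Gp5* and *Gp6*, subunits of platelet glycoprotein receptors, were under the filter, with signals of 51.0, 69.9 and 13.1 in Tg and 29.5, 56.7 and 11.1 in WT.

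The remaining α subunits that passed lay within the threshold. By ligand, 1 of 7 passing RGD-binding subunits was under -0.3 and 2 were over 0.3 (median 0.19). Of 3 passing laminin-binding subunits 1 was under -0.3 and none over 0.3 (median -0.23). Among all genes 16.9% were under and 16.6% over, and counts in so few genes do not set the classes apart. *Itga6*, a laminin receptor of endothelial and epithelial cells, had 3688 in Tg and 4332 in WT (-0.23), and its other probe set gave -0.23 as well. Markers of endothelial cells had 1 of 10 under -0.3, with a median of -0.09 and summed signals of 12018 in Tg and 13095 in WT. *Itga3*, another laminin receptor, had 0.18, with its dimmer passing probe set at 0.87, and *Itga8*, a nephronectin receptor of mesenchymal cells, had 0.24. *Itgav*, the αv subunit of the RGD receptors, had 3016 in Tg and 3289 in WT (-0.12), and its other passing probe set had -0.68. *Itga1*, the collagen receptor of mesenchymal cells, read 0.10 from its brightest probe set and -0.55 from its other one, so that its direction depends on the probe set. *Itga2* and *Itga10*, both collagen receptors, were under the filter, with higher signals of 47.6 and 87.6, both in Tg.

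Of the β subunits other than β2, *Itgb1* and *Itgb8* were past the threshold, on opposite sides. *Itgb1* had 2578 in Tg and 3626 in WT (-0.49), and its 3 passing probe sets were all under -0.3, at -0.49, -0.54 and -0.73. *Itgb8*, whose product pairs with αv and activates latent TGF-β, had 264.3 in Tg and 132.4 in WT, the highest signal log ratio of the 39 genes at 0.997. It has a single probe set and was dim on both arrays. *Itgb5*, an αv partner that binds vitronectin and is abundant in fat, had 3365 in Tg and 3924 in WT (-0.22), and its 4 probe sets ranged from -0.33 to 0.05. *Itgb4* and *Itgb6*, the β subunits of epithelia, were under the filter, with signals of 57.2 and 34.2 in Tg and 24.8 and 28.2 in WT. The genes that share the name without being subunits lay within the threshold: *Itgb1bp1*, which encodes ICAP1, a protein that binds the β1 tail, had 0.15, *Itgb3bp*, a centromere protein, had 0.23 and *Itgbl1*, a secreted integrin-like protein, had 0.04. *Itgb1bp2*, which encodes the muscle protein melusin, was under the filter.

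**Figure D3:**
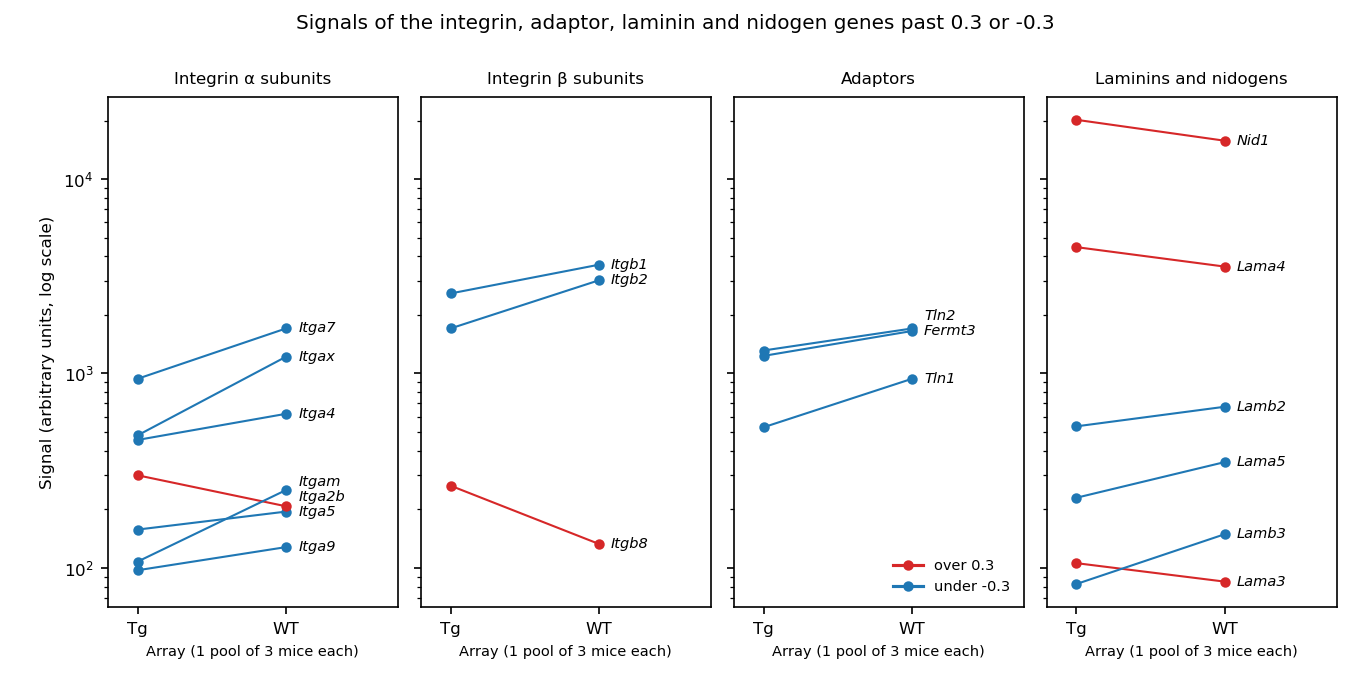
Signals in arbitrary units on a log axis for the 19 genes past 0.3 (red) or -0.3 (blue), with the Tg array on the left and the WT array on the right of each panel. Each line joins the 2 signals of a gene's brightest probe set, and each array is 1 pool of 3 mice. *Itgax* is at 480.3 in Tg, against 1220 in WT, and *Itgb8* is at 264.3 in Tg, against 132.4 in WT.

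Of 7 adaptors that passed, 3 were under -0.3 and none was over 0.3, against 16.9% and 16.6% of all genes, with a median of -0.15. Values were below 0 in 6 of them, against 5416 of all 11587 genes, and *Ilk* and *Parvb* among the 6 were near 0. *Tln1*, the talin of most cells, had 528.2 in Tg and 938.5 in WT (-0.83), but its other 2 passing probe sets had -0.19 and -0.18, within the threshold. *Tln2*, the second talin, had 1312 in Tg and 1703 in WT (-0.38), and its other passing probe set had -0.51. *Ilk*, which encodes integrin-linked kinase, was alike on both arrays, with 3864 in Tg and 3891 in WT (-0.01). *Fermt2*, the kindlin of cells outside the blood, had 6329 in Tg and 7008 in WT (-0.15), and its other passing probe sets had -0.25 and 0.42. *Parva*, which encodes α-parvin, had 0.15 from its brightest probe set and -0.67 from its other one, and *Parvb*, which encodes β-parvin, had -0.08.

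Of 25 further genes of focal adhesions on the array, all passed the filter, with a median of -0.17. In this list 4 (16.0%) were under -0.3 and 3 (12.0%) over 0.3, against 16.9% and 16.6% of all genes. The lowest were *Csk*, the kinase that restrains Src, at -0.68, and *Bcar1*, the scaffold p130Cas, at -0.65. *Actn1*, an actin crosslinker, had 1232 in Tg and 1710 in WT (-0.47), and *Tns2*, a tensin, had 2407 in Tg and 1645 in WT (0.55). *Vcl*, vinculin, and *Pxn*, paxillin, were within the threshold at 0.10 and -0.24.

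The laminin chains were split. Of 8 that passed, 3 were under -0.3 and 2 exceeded 0.3, against 16.9% and 16.6% of all genes. Their median was -0.04, against 0.02 for all genes. The α4, β1 and γ1 chains together make a laminin of small vessels and adipocytes. *Lama4*, which encodes α4, had 4463 in Tg and 3542 in WT (0.33), *Lamb1*, which encodes β1, had 4089 in Tg and 4077 in WT (0.00), and *Lamc1*, which encodes γ1, had 2092 in Tg and 2090 in WT (0.00). For *Lama4* and *Lamc1* the second passing probe set was lower in Tg, with 126.2 in Tg and 199.0 in WT for *Lama4* (-0.66) and 37.3 in Tg and 250.7 in WT for *Lamc1* (-2.75). The 3 passing probe sets of *Lamb1* lay between -0.27 and 0.22. *Lama2*, the α2 chain of muscle and nerve that adipocytes also make, had -0.08.

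*Lama5*, the α5 chain of vessels and epithelia, was lower on both of its passing probe sets, with 229.2 in Tg and 350.0 in WT on the brightest (-0.61) and -0.84 on the other. *Lamb2*, the β2 chain of vessel walls and synapses, had 534.1 in Tg and 673.9 in WT (-0.34). The epithelial chains were dim: *Lamb3* had 82.5 in Tg and 149.0 in WT (-0.85), and *Lama3* had 105.6 in Tg and 84.8 in WT (0.32). Both chains belong to the laminin of hemidesmosomes, and their signal log ratios had opposite signs. *Lamc3* had 60.3 in Tg and 92.7 in WT, and *Lama1*, a chain of the embryo and of epithelia, had 6.0 in Tg and 3.4 in WT, both under the filter. Markers of mesothelial cells, an epithelial layer on this fat pad, had 4 of 9 over 0.3 and none under -0.3, with a median of 0.29 and summed signals of 11118 in Tg and 9199 in WT, and their part was not tested.

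The nidogens link laminin to type IV collagen. *Nid1* had 20170 in Tg and 15734 in WT on its brightest probe set (0.36), but its other passing probe sets had 2483 in Tg and 3688 in WT (-0.57), and 309.7 in Tg and 326.4 in WT (-0.08). The direction of *Nid1* thus depends on the probe set read. Whether the 5' shift of the poly-A and mouse controls bears on probe sets of one gene that disagreed in sign was not tested. In *Nid1*, *Lama4*, *Lamc1*, *Parva* and *Itga1* the readings of the other sign were lower than the brightest. In *Fermt2* and *Itgb5* they were higher, at 0.42 and 0.055, and *Lamb1* had dimmer readings on each side of its brightest. *Nid2* had 966.5 in Tg and 1067 in WT (-0.14). Of 15 other basement membrane genes that passed, 4 were under -0.3 and 3 were over 0.3, against 16.9% and 16.6% of all genes, with a median of 0.05. The main type IV collagen chains were both under -0.3, with 13521 in Tg and 17601 in WT for *Col4a1* (-0.38) and 3565 in Tg and 6820 in WT for *Col4a2* (-0.94). *Ntn4*, a netrin that binds laminin, had 723.9 in Tg and 457.5 in WT (0.66). The minor type IV collagen chains had opposite signs, with 709.7 in Tg and 512.2 in WT for *Col4a5* (0.47) and 92.9 in Tg and 131.0 in WT for *Col4a6* (-0.50). *Hspg2*, perlecan, had -0.27.

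Among ligands and other laminin receptors, 6 of 16 integrin ligands that passed were under -0.3 and 3 were over 0.3, with a median of -0.13. The shares among all genes were 16.9% and 16.6%. *Tgfb1*, whose latent product is bound by αv integrins, had 306.8 in Tg and 810.1 in WT (-1.40), *Ccn1*, a matricellular protein, had 1127 in Tg and 2193 in WT (-0.96), *Tnc*, tenascin-C, had 200.9 in Tg and 370.1 in WT (-0.88), and *Postn*, periostin, had 5733 in Tg and 9778 in WT (-0.77). *Ccn2*, of the same CCN family, had 867.1 in Tg and 508.6 in WT (0.77). *Vcam1*, the ligand of α4, had 0.32, and *Icam1*, the ligand of β2 integrins, had -0.04. Of 11 laminin receptors other than integrins, 2 (18.2%) were under -0.3 and none was over 0.3, and the median was 0.12. *Sgcd*, a sarcoglycan of the dystrophin complex, had 56.1 in Tg and 154.3 in WT (-1.46), and *Bcam*, a receptor for the α5 chain, had 140.0 in Tg and 191.9 in WT (-0.45). *Sgce*, another sarcoglycan, and *Cd151*, a tetraspanin that binds laminin-receptor integrins, had 0.30 and 0.22, within the threshold. *Dag1*, dystroglycan, had -0.12.

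Probe sets of one gene gave a further reading of the same pools. Of the 39 genes, 17 had at least 2 passing probe sets, and in 9 of these all passing probe sets lay on the same side of 0, a share of 52.9% against 48.6% of all 5260 genes with 2 or more. All 6 genes under -0.3 that had a second passing probe set kept their sign on every one, namely *Itga4*, *Itgb1*, *Lama5*, *Fermt3*, *Tln1* and *Tln2*. Both genes over 0.3 that had one, *Lama4* and *Nid1*, did not. The other 8 genes under -0.3 and the other 3 over 0.3 had a single passing probe set. The second-brightest probe set was the lower one in 11 of the 17 genes (64.7%), against 58.1% of all genes, with a median difference of -0.10 from the brightest, against -0.07 for all genes. Over all 64 passing probe sets of these genes, 27 were under -0.3 and 7 were over 0.3, against 21.9% and 16.9% of the 20393 passing probe sets with 1 symbol.

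**Figure D4:**
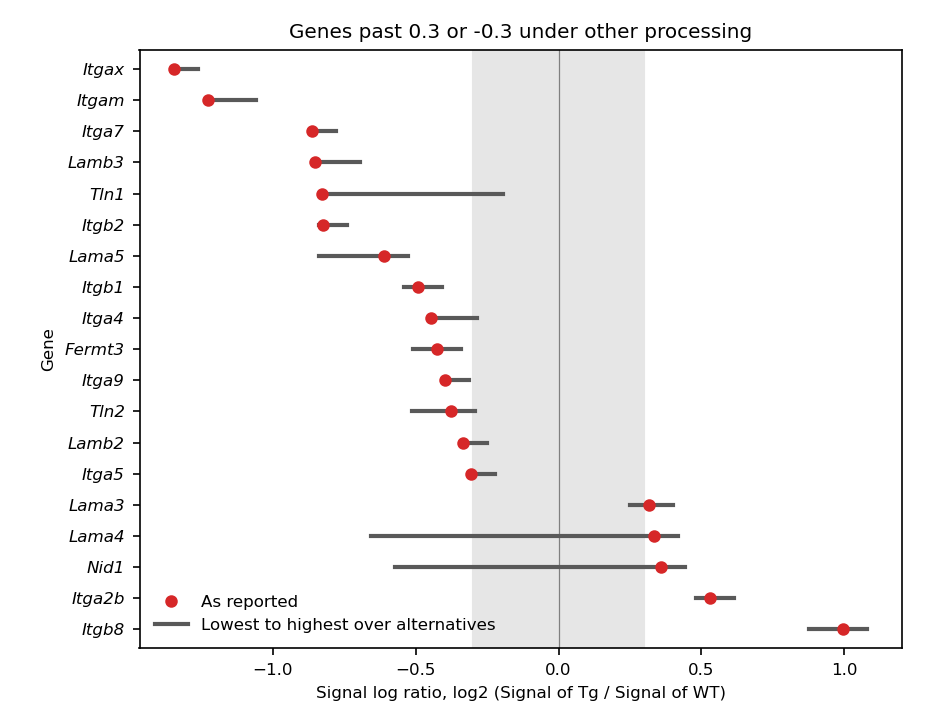
Signal log ratio (log2, Tg over WT) on the horizontal axis for the 19 genes past 0.3 or -0.3, as reported (red points) and from the lowest to the highest value over the other processing settings in which the gene passed (dark grey bars). The pale band covers -0.3 to 0.3. *Itgax*, which has a single probe set that settings on probe sets cannot change, stays between -1.35 and -1.26. *Nid1*, which has several passing probe sets, runs from -0.57 to 0.44.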

How the data were processed

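Total RNA of perigonadal WAT was pooled from 3 mice per genotype, labelled with biotin and hybridised to the Affymetrix Mouse Genome array, 1 array per pool. The authors deposited intensity values computed with GeneChip Operating Software, and the submitters' processing notes name MAS5. Each signal combines perfect-match and mismatch probes on a linear scale after scaling of the whole array. Detection calls were not used here.

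Of 45101 probe sets, 64 controls were set aside, 34945 had 1 symbol in the platform annotation, 932 had several and 9160 were unnamed here. The signal log ratio was taken from the signals as deposited, and a gene from the probe set with the highest mean of its log2 signals. With 1 array per group, calls are values past 0.3 or -0.3, there is no test, and the number of arrays limits the precision. Every gene past the threshold is named, with the 4 largest absolute values of each other pathway list. *Vcl*, *Pxn*, *Col4a1*, *Hspg2*, *Ccn2*, *Vcam1*, *Icam1*, *Dag1* and the named cell type markers were added after their values were seen. Genes, lists and rules were chosen with earlier results of these data known.

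Alternatives for the signals were median centring, quantile normalization, loess (span 0.3), a pseudocount of 25.1 and a floor of 56.9. Those for the filter were no filter, a filter at 470.5 and a filter on the mean log2 signal. Those for the probe set were the median over probe sets, the brightest without a suffix for shared transcripts where a gene had one, and the second-brightest. The steps were checked on simulated data with known shifts, in which all probe sets of a gene moved alike with little noise. That check covers the arithmetic and not the calls at the scatter of these arrays. Promoters came from RefSeq (GRCm38.p6). Scripts ran under Python 3.11.15 (pandas 2.3.3, numpy 2.4.6, statsmodels 0.14.6 for loess).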

Additional observations from a re-analysis of the deposited data

How the results depend on the processing

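Under the 11 alternatives, 11 of the 19 genes past the threshold stayed past it on the same side wherever they passed, *Itgax*, *Itgam*, *Itgb2*, *Itgb1*, *Itga7*, *Itga9*, *Itga2b*, *Itgb8*, *Lama5*, *Lamb3* and *Fermt3*. Of these, only *Itgb1*, *Lama5* and *Fermt3* have more than a single passing probe set. For the others, settings that change the probe set could not move the value, so their place in this list is no sign of agreement between readings. A change of filter, or a floor below both signals, also leaves a value as it was. The count of genes over 0.3 was 5, and it was 8 with no filter and 2 with the filter at 470.5, which 23 genes passed. With no filter the share was 16.3%, against 24.6% of all genes, and at 470.5 it was 8.7%, against 14.1%. It was 1 with the second-brightest probe set, which passed the filter in 17 genes (5.88%, against 17.0% of all genes). The count under -0.3 was 14 (35.9%, against 16.9% of all genes). With the filter at 470.5 that count was 9 (39.1%, against 11.5%). On the second-brightest probe set it was 10 (58.8%, against 25.8%). The median was -0.08, and -0.51 on the second-brightest probe set. With median centring the median was 0.00, against 0.11 for all genes. Between -0.82 and -0.55 in 10 of the alternatives, the median of the leukocyte subunits was -0.29 on second-brightest probe sets, where only that of *Itga4* passed the filter. The sign turned for *Lama4*, with -0.66 on the second-brightest probe set and -0.16 for the median over probe sets, and for *Nid1*, with -0.571 and -0.076, and the cause was not tested. *Tln1* moved to -0.19 under both. *Itga4*, *Itga5*, *Lama3*, *Lamb2* and *Tln2* came within the threshold in at least 1 setting and kept their sign. No paired analysis was possible because each genotype has 1 array. *Itga9*, *Lamb3* and *Lama3* passed the filter on 1 array alone and lie near the lower end of the signals.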
